A study of Mus musculus with 12 samples.

Results

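Collagen chain genes were examined in bulk RNA-seq of murine airway smooth muscle cells (SMCs) and lung PDGFR-β+ cells in which Klf4 had been silenced. The chains were chosen by name, as every gene in both deposited expression tables whose symbol is Col, a number, the letter a and a number with nothing after it, which gave 44 of 52636 genes. The 12 libraries form 4 groups of 3, with each cell type treated with a scrambled control RNA (Scr) or with a small interfering RNA against Klf4 (siKlf4). The SMCs are primary C57BL/6 cells bought from Cell Biologics, which the titles call lung airway SMCs and the source field tracheal SMCs. The PDGFR-β+ cells come from lungs of C57BL/6 mice aged 12 weeks according to the labels, with the genotype given as WT for Scr and Klf4 KD for siKlf4. According to the methods they were isolated by their Zs reporter, recombined by tamoxifen in mice carrying Pdgfrb-CreERT2 with ROSA26R(Zs/+), and were then grown in culture, so that they are defined by activity of the Pdgfrb promoter driving Cre and may hold more than 1 cell type. The paper calls the libraries of a group independent experiments, while the labels do not say whether they came from separate mice or lots of cells, and the p-values measure the spread between these libraries.

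Each collagen is a triple helix of α chains in which glycine recurs at a fixed spacing, because only its small side chain fits inside the helix. The fibrillar types build the tensile fibrils of connective tissue, type IV forms the network of basement membranes, type VI forms beaded microfilaments around cells, and the FACIT types decorate the fibril surface. Many chains work in set combinations with partner chains, type I as paired α1 chains with an α2 chain. Others, such as the type III chain, assemble with copies of themselves. Fibroblasts and other mesenchymal cells of the lung are the main makers of collagen chains there, in scarring above all.

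The spacing of glycine can be read from the coding sequence, and 6 chains that the results below turn on are shown as stretches of 72 bases from GENCODE release M21 transcripts, with every GGN codon, which encodes glycine, in capitals. The first 4 stretches start where the longest unbroken run of such codons begins, and those of type IV start shortly before a break.

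Col1a1, codons 168 to 191: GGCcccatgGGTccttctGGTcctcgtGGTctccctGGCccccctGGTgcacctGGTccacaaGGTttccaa
Col1a2, codons 97 to 120: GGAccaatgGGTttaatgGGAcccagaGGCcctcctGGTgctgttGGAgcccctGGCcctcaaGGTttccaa
Col6a3, codons 2165 to 2188: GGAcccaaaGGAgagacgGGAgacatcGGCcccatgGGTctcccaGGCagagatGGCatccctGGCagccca
Col28a1, codons 277 to 300: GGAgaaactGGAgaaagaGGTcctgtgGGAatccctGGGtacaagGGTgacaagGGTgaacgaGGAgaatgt
Col4a1, codons 151 to 174: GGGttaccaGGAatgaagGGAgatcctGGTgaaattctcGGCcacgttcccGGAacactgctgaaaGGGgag
Col4a2, codons 160 to 183: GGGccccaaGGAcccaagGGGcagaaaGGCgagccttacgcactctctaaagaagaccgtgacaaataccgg

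In the longest coding transcript, the unbroken run was 338 triplets long in Col1a1, 339 in Col1a2 and 344 in Col3a1. It was 40 in Col4a1 and 66 in Col4a2, whose helices are broken at many points, 87 in Col6a1, 45 in Col6a3, 32 in Col12a1 and 28 in Col28a1. Runs of at least 10 triplets took up 73.3% of the codons of Col1a1 and 10.1% of those of Col6a3, most of which encodes globular domains.

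Klf4, the silenced transcription factor, fell to 9.16% of the Scr mean in PDGFR-β+ cells, from 134 to 146 TPM under Scr to 12.3 to 13.8 TPM under siKlf4 (log2 difference -3.35, adjusted p = 3.3e-06, limma). In SMCs it fell to 21.9%, from 89.6 to 96.3 TPM to 16.3 to 26.5 TPM (log2 difference -2.16, adjusted p = 7.5e-04, limma). TPM divides reads by transcript length and scales every library to the same total, so levels can be compared between genes, while the sequencing depth is not kept and no counting error can be given. Between 20590 and 21780 genes per library were above 0. Differences were taken between log2(TPM + 1) values, so that changes of low genes come out too small, and were tested with limma over all genes averaging at least 1 TPM, with Benjamini-Hochberg adjustment and a threshold of 0.05. A two-sided exact permutation test of 3 libraries against 3 cannot give a p below 0.1, so no single chain can pass 0.05 by it. Among the SMC libraries, 1 of Scr and 1 of siKlf4 are listed without any replicate number. The median absolute log2 difference between the unnumbered library and the numbered ones of its group was 0.186 and 0.197 with Scr and 0.154 and 0.158 with siKlf4, against 0.107 and 0.101 between the numbered pairs. SMC values are given in the order unnumbered, replicate 2, replicate 3, and SMC results are also given for the 4 numbered libraries.

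Collagen transcripts made up under 1% of all TPM in each library. They held 0.896, 0.724 and 0.855% of all TPM in the Scr PDGFR-β+ libraries and 0.809, 0.627 and 0.636% in the siKlf4 ones. In SMCs they held 0.916, 0.887 and 0.887% with Scr and 0.769, 0.691 and 0.717% with siKlf4. The siKlf4 share lay below every Scr share in SMCs (exact permutation p = 0.1, two-sided, which is the lower limit of the test), while the groups overlapped in PDGFR-β+ cells. In these bulk cultures, fewer cells of a kind and less RNA per cell cannot be told apart. Fibrillar chains held the largest part in each group, 69.1% ± 0.253 (SD, n = 3) of collagen TPM in Scr PDGFR-β+ cells and 58.8% ± 3.26 in Scr SMCs. Of the 44 chains, 19 reached a group mean of 10 TPM and 17 one of 100 TPM. Another 12 stayed under 1 TPM in every library and entered no test, and Col26a1 was listed at 0 in all 12.

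**Figure D1:**
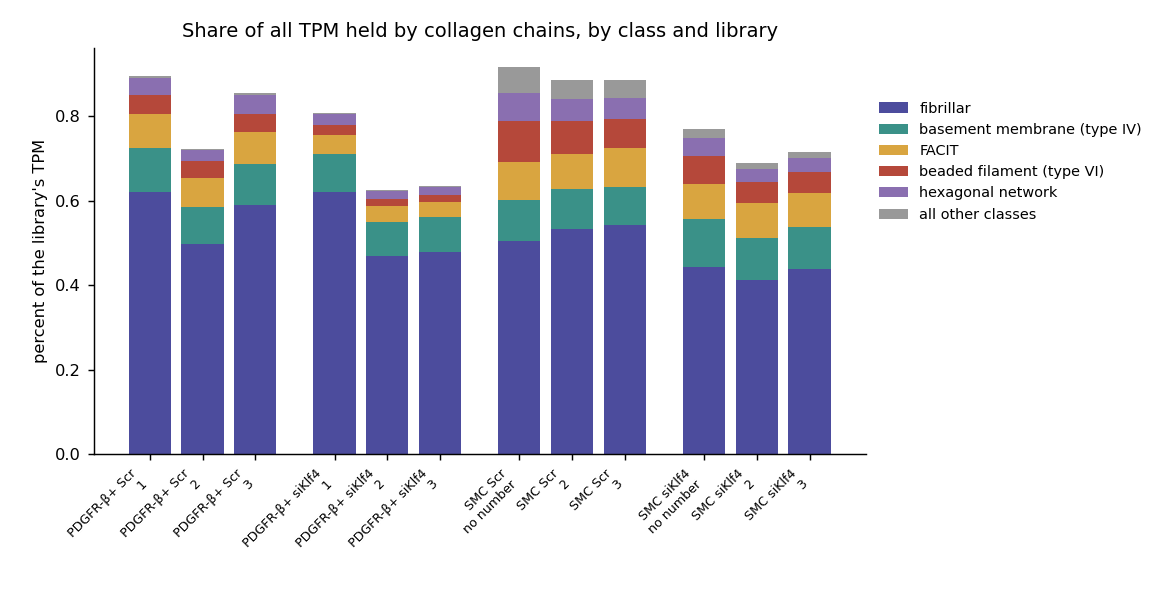
Share of each library's TPM held by collagen chains (y axis, percent, bars stacked by collagen class) for the 12 libraries in 4 groups. The 3 siKlf4 SMC libraries, at 0.691 to 0.769%, stand below the 3 Scr SMC libraries at 0.887 to 0.916%, and fibrillar chains form the largest block in all 12.

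With siKlf4, more chains fell than rose in each cell type. In PDGFR-β+ cells, 12 of 28 tested chains were lower (42.9%) and 3 were higher (10.7%), where 15.3% of all 13694 genes tested were lower and 25.3% higher. In SMCs, 10 of 30 tested chains were lower (33.3%) and 2 were higher (6.67%), against 12.9% and 15.6% of all 13709 genes tested. The median log2 difference of the tested chains was -0.27 in PDGFR-β+ cells, where that of all genes was 0.10, and -0.11 in SMCs, where that of all genes was 0.02. In the 4 numbered SMC libraries 13 chains were lower and 3 higher, among them all 12 of the first count. The share of all genes called in that fit was not counted, so its larger count is not a result about collagen. Of 26 chains tested in both cell types, Col6a1, Col8a1, Col16a1, Col28a1 and Col4a6 were lower in both and Col11a1 was higher in both. The share of all genes called in both was not counted, so these are a description. Only Col16a1 and Col11a1 kept both calls in all alternatives. Col4a2 was the 1 chain called in opposite directions. In PDGFR-β+ cells 1 of the 12 lower chains, Col15a1, reached the minimum mean only through its Scr group, so its direction was set by that filter, and 11 were lower without it.

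**Figure D2:**
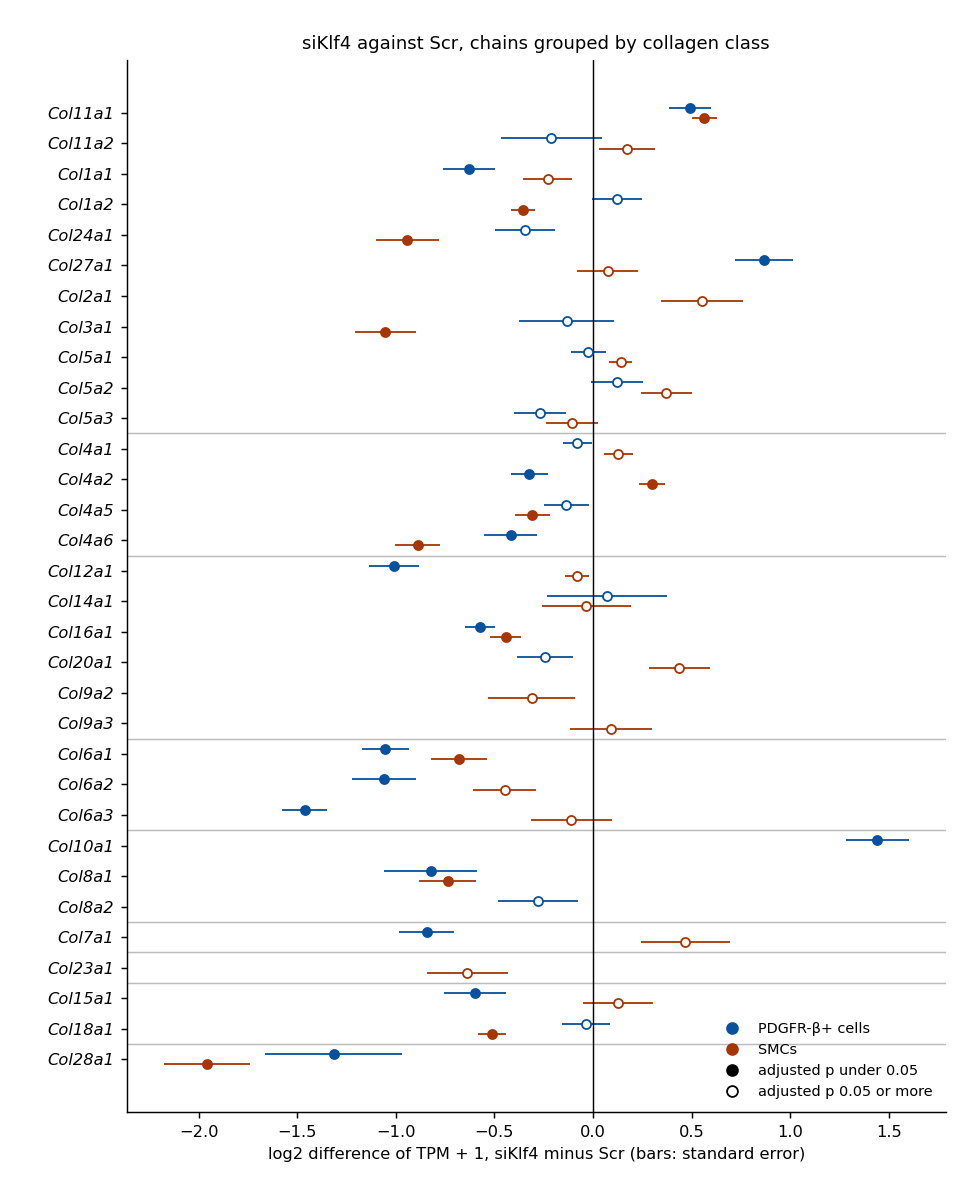
Log2 difference of TPM + 1 between siKlf4 and Scr (x axis, points with standard errors from limma) for each tested chain in PDGFR-β+ cells (blue) and SMCs (brown), with grey lines between collagen classes and filled points for an adjusted p under 0.05. The 3 type VI chains lie furthest left in PDGFR-β+ cells together with Col28a1 and Col12a1, whereas in SMCs Col28a1, Col3a1, Col24a1 and Col4a6 do. The filled point of Col15a1 in PDGFR-β+ cells passed the filter only through its Scr group, so that the filter set its direction.

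Type I collagen, the main fibril former of scar and of normal lung, is made of Col1a1 and Col1a2 chains, and with siKlf4 Col1a1 passed the test in PDGFR-β+ cells and Col1a2 in SMCs. Col1a1 (ENSMUSG00000001506.10) is a gene of chromosome 11 (mm10, 94936224 to 94953042, forward strand). In PDGFR-β+ cells it measured 2103, 1783 and 1925 TPM under Scr and 1534, 1105 and 1153 TPM under siKlf4. Every siKlf4 library was below every Scr library, and the mean fell to 65.3% (log2 difference -0.63, standard error 0.13, adjusted p = 0.00816, limma). In SMCs it measured 899, 1196 and 1229 TPM under Scr and 898, 926 and 988 TPM under siKlf4. Here the groups overlapped through the unnumbered Scr library and the difference did not pass the test (log2 difference -0.23, standard error 0.12, adjusted p = 0.209, limma). Col1a1 did pass when that library was left out, which held for no other library, and in the 4 numbered libraries alone, with a log2 difference of -0.34 in the numbered libraries (adjusted p = 0.0131, limma, in a range of 0.0113 to 0.517 over 16 alternatives).

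Col1a2 (ENSMUSG00000029661.16; chromosome 6, 4504814 to 4541544, forward strand) was called in SMCs and not in PDGFR-β+ cells. In PDGFR-β+ cells it measured 1619.5, 1332 and 1494 TPM under Scr and 1920.3, 1458 and 1481 TPM under siKlf4. These groups overlapped, with a log2 difference of 0.12 (standard error 0.13, adjusted p = 0.475, limma). In SMCs it measured 1678, 1787 and 1782 TPM under Scr and 1364, 1334 and 1404 TPM under siKlf4. All siKlf4 libraries were below all Scr libraries, and the mean fell to 78.2% (log2 difference -0.36, standard error 0.06, adjusted p = 0.00685, limma). The ratio of Col1a1 to Col1a2, taken within each library, was 1.30, 1.34 and 1.29 with Scr and 0.799, 0.758 and 0.779 with siKlf4 in PDGFR-β+ cells, with no overlap. In SMCs the ratio was 0.536, 0.669 and 0.690 with Scr and 0.658, 0.694 and 0.704 with siKlf4, which overlap. The exact permutation p, two-sided, was 0.1 in PDGFR-β+ cells and 0.4 in SMCs.

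Col3a1 (ENSMUSG00000026043.18; chromosome 1, 45311538 to 45349706, forward strand), the homotrimeric type III chain that joins type I in pliable tissue, fell in SMCs and was spread widely in PDGFR-β+ cells. In SMCs it measured 1503, 1300.1 and 1232 TPM under Scr and 821, 552 and 593 TPM under siKlf4. The groups stood apart, and the mean fell to 48.7% (log2 difference -1.05, standard error 0.16, adjusted p = 0.00432, limma). In PDGFR-β+ cells it measured 683, 412 and 697 TPM under Scr and 700.2, 443 and 479.7 TPM under siKlf4. A low Scr library and a high siKlf4 library made these overlap (log2 difference -0.13, standard error 0.24, adjusted p = 0.691, limma). Col5a2 lies 24614 bases beyond Col3a1 on the opposite strand, and was not called in either cell type. It measured 505, 607 and 725 TPM under Scr and 754, 772 and 829 TPM under siKlf4 in SMCs (log2 difference 0.37, standard error 0.13, adjusted p = 0.0695, limma).

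Type V and XI chains nucleate fibrils and set their width. Col5a1, the usual partner of Col5a2, measured 481, 429.9 and 444 TPM under Scr and 498, 419 and 420.1 TPM under siKlf4 in PDGFR-β+ cells, and Col5a2 1235, 957 and 1240.1 against 1421, 1159.9 and 1146 TPM. Both pairs of groups overlapped, with log2 differences of -0.02 and 0.12 (adjusted p = 0.859 and 0.488, limma). In SMCs Col5a1 measured 196, 199 and 196 TPM under Scr and 226, 213 and 213 TPM under siKlf4, which do not overlap but did not pass (log2 difference 0.14, adjusted p = 0.109, limma). Col5a3 ranged from 6.21 to 13.5 TPM over the 12 libraries and was not called in either cell type. Col11a1 (ENSMUSG00000027966.20; chromosome 3, 114030540 to 114220718, forward strand), which can take the place of Col5a1 in mixed fibrils, rose in both cell types. It measured 75.9, 63.8 and 78.0 TPM under Scr and 112, 102 and 93.2 TPM under siKlf4 in PDGFR-β+ cells (log2 difference 0.49, standard error 0.10, adjusted p = 0.00838, limma). In SMCs it measured 225, 214 and 223 TPM under Scr and 343, 308 and 331 TPM under siKlf4 (log2 difference 0.57, standard error 0.07, adjusted p = 0.00201, limma). The means rose to 141% and 148% of Scr, and the groups did not overlap in either cell type. The remaining fibrillar chains were low, apart from Col2a1 in SMCs. There Col2a1 measured 12.5, 9.86 and 9.25 TPM under Scr and 21.6, 12.2 and 14.9 TPM under siKlf4, which overlap (log2 difference 0.55, adjusted p = 0.0873, limma). Col24a1 and Col27a1, named here after their values were seen, stayed at or below 7.75 TPM. Col27a1 rose in PDGFR-β+ cells from 1.10, 1.16 and 1.09 to 3.38, 2.48 and 2.78 TPM (log2 difference 0.87, adjusted p = 0.00293, limma), and Col24a1 fell in SMCs from 7.75, 5.23 and 5.72 to 2.86, 2.89 and 2.45 TPM (log2 difference -0.94, adjusted p = 0.00641, limma).

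Type IV collagen holds Col4a2, the chain called lower in PDGFR-β+ cells and higher in SMCs. Col4a1 and Col4a2 form the common α1α1α2 heterotrimer and start head to head on chromosome 8, with Col4a1 on the reverse strand from 11198423 to 11312826 and Col4a2 on the forward strand from 11312805 to 11449287, so that their annotated ends overlap by 22 bases. Col4a2 (ENSMUSG00000031503.13) measured 394, 331 and 379 TPM under Scr and 324, 273 and 285 TPM under siKlf4 in PDGFR-β+ cells, where it fell to 79.9% with no overlap (log2 difference -0.32, standard error 0.10, adjusted p = 0.0302, limma). In SMCs it measured 316, 326 and 321 TPM under Scr and 426, 378 and 384 TPM under siKlf4, and rose to 123%, again with no overlap (log2 difference 0.30, standard error 0.07, adjusted p = 0.017, limma). The fall in PDGFR-β+ cells lost its call without Scr replicate 1 or 3 or siKlf4 replicate 2 or 3, with log2 differences of -0.42 to -0.27 and adjusted p-values of 0.00906 to 0.102 over all 14 alternatives, whereas the rise in SMCs held in all 16. The fall also lost its call without the minimum mean of 1 TPM and without the mean-variance trend. Col4a1 (ENSMUSG00000031502.11) measured 520.5, 451 and 499 TPM under Scr against 482, 453 and 455 TPM in PDGFR-β+ cells, and 526, 500.1 and 485 TPM against 599, 531 and 524 TPM in SMCs. Its groups overlapped in both, with log2 differences of -0.08 and 0.13 (adjusted p = 0.427 and 0.232, limma). The ratio of Col4a2 to Col4a1 was 0.757, 0.734 and 0.759 with Scr and 0.671, 0.603 and 0.627 with siKlf4 in PDGFR-β+ cells. In SMCs it was 0.601, 0.652 and 0.661 with Scr and 0.711, 0.711 and 0.733 with siKlf4. The ratio was lower with siKlf4 in the former and higher in the latter, with no overlap in either (exact permutation p = 0.1 for both, two-sided).

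Col4a5 and Col4a6, partners in smooth muscle basement membranes, start 1308 bases apart on opposite strands of the X chromosome. Col4a6, below 10 TPM in every group mean and named after its values were seen, fell in both cell types, from 8.83, 8.35 and 10.3 to 7.78, 6.41 and 5.67 TPM in PDGFR-β+ cells (log2 difference -0.42, standard error 0.14, adjusted p = 0.0425, limma) and from 10.6, 8.81 and 8.71 to 4.77, 4.39 and 4.58 TPM in SMCs (log2 difference -0.89, standard error 0.11, adjusted p = 0.0028, limma). Col4a5, more abundant by an order of magnitude, measured 105, 83.8 and 98.1 TPM under Scr and 98.3, 82.0 and 80.6 TPM under siKlf4 in PDGFR-β+ cells, which overlap (adjusted p = 0.374, limma). In SMCs it fell from 112, 100.2 and 101 to 93.4, 78.7 and 80.7 TPM (log2 difference -0.31, standard error 0.09, adjusted p = 0.0399, limma). The call of Col4a6 in PDGFR-β+ cells rested on single libraries. So did calls of Col6a1, Col8a1 and Col28a1, and with them the count of chains lower in both. That of Col4a6 was lost without Scr replicate 1 or 3 or siKlf4 replicate 2 or 3 and with a replicate block, where the log2 difference was also -0.42 (adjusted p = 0.0699, limma). It was also lost without the minimum mean of 1 TPM. Over 14 alternatives its log2 differences were -0.56 to -0.33, with adjusted p-values up to 0.127. The call of Col4a5 in SMCs was lost without any single library except the unnumbered siKlf4 one (log2 differences -0.38 to -0.26, adjusted p up to 0.131 over 16 alternatives). That call was also lost without the minimum mean of 1 TPM and without the mean-variance trend. Col4a3 and Col4a4, the chains of the mature kidney and alveolar basement membrane, stayed under 1 TPM throughout and were not tested.

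Among the FACIT chains, Col12a1 and Col16a1 were the abundant ones. Col12a1 (ENSMUSG00000032332.17; chromosome 9, 79598991 to 79718831, reverse strand), which coats type I fibrils, measured 689, 555 and 633 TPM under Scr and 368, 289 and 278 TPM under siKlf4 in PDGFR-β+ cells. The groups stood well apart, and the mean fell to 49.8% (log2 difference -1.01, standard error 0.13, adjusted p = 8.3e-04, limma). In SMCs it measured 789, 741 and 796 TPM under Scr and 759, 723 and 714 TPM under siKlf4, which overlap (log2 difference -0.08, standard error 0.06, adjusted p = 0.347, limma). Col16a1, a FACIT chain of several connective tissues, fell in both cell types by similar amounts. It went from 127, 112 and 119 to 83.6, 80.1 and 75.5 TPM in PDGFR-β+ cells (log2 difference -0.57, standard error 0.08, adjusted p = 0.00107, limma) and from 116, 104 and 104 to 73.6, 81.0 and 83.3 TPM in SMCs (log2 difference -0.44, standard error 0.08, adjusted p = 0.0077, limma). Of the other FACIT chains, those tested stayed under 3 TPM and none was called in either cell type.

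Type VI collagen has 6 chain genes, of which 3 were high enough to test, and all 3 fell in PDGFR-β+ cells. Its Col6a1, Col6a2 and Col6a3 chains assemble into one monomer. Col6a3 (ENSMUSG00000048126.16; chromosome 1, 90765923 to 90843971, reverse strand) measured 143, 162 and 121 TPM under Scr and 54.3, 49.2 and 48.2 TPM under siKlf4, and fell to 35.7% (log2 difference -1.46, standard error 0.11, adjusted p = 9.5e-05, limma). Col6a1 (chromosome 10, 76708792 to 76726168, reverse strand) measured 212, 182 and 213 TPM under Scr and 114, 87.1 and 90.4 TPM under siKlf4 (log2 difference -1.05, standard error 0.12, adjusted p = 5.2e-04, limma). Col6a2, its neighbour 85161 bases away on the same strand, measured 79.2, 63.7 and 81.1 TPM under Scr and 44.4, 29.3 and 33.1 TPM under siKlf4 (log2 difference -1.06, standard error 0.16, adjusted p = 0.002, limma). None of these groups overlapped, and the 3 calls held in all 14 alternatives.

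In SMCs Col6a1 was the 1 type VI chain called. It fell from 581, 461 and 421 to 352, 279.8 and 278 TPM (log2 difference -0.68, standard error 0.14, adjusted p = 0.0135, limma), a call lost without siKlf4 replicate 2 or 3 (log2 differences -0.79 to -0.55 and adjusted p up to 0.0513 over 16 alternatives). Col6a2 measured 282, 222 and 198 TPM under Scr and 206, 153 and 155 TPM under siKlf4, which overlap (log2 difference -0.45, adjusted p = 0.0778, limma). It was called without the unnumbered siKlf4 library and in the 4 numbered libraries, where the log2 difference was also -0.45 (adjusted p = 0.0148, limma, in a range of 0.00259 to 0.207 over 16 alternatives). Col6a3 measured 103, 78.4 and 73.5 TPM under Scr and 106, 67.3 and 66.1 TPM under siKlf4, which overlap (log2 difference -0.11, standard error 0.21, adjusted p = 0.715, limma). The ratio of Col6a3 to Col6a1 was 0.710 ± 0.165 (SD, n = 3) with Scr and 0.524 ± 0.0461 with siKlf4 in PDGFR-β+ cells. In SMCs it was 0.174 ± 0.00366 with Scr and 0.260 ± 0.0356 with siKlf4. The groups did not overlap in either cell type (exact permutation p = 0.1 for both, two-sided). In PDGFR-β+ cells they nearly met, with a lowest Scr ratio of 0.567 and a highest siKlf4 ratio of 0.565. The ratio of Col6a2 to Col6a1 was 0.368 ± 0.0160 with Scr and 0.363 ± 0.0257 with siKlf4 in PDGFR-β+ cells, which overlap, and 0.480 ± 0.00796 against 0.563 ± 0.0198 in SMCs, which do not.

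**Figure D3:**
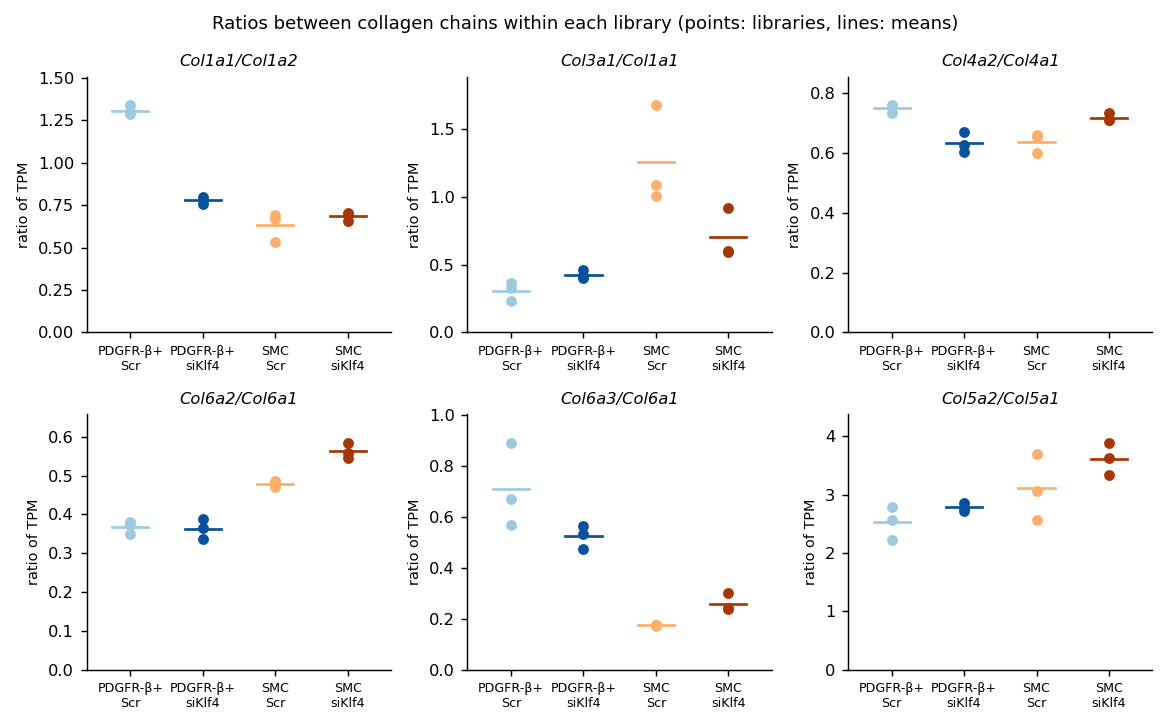
Ratios of TPM between pairs of collagen chains (y axes from 0, no unit) in each library of the 4 groups, with a line at each group mean. Col1a1 to Col1a2 drops from about 1.31 to 0.779 with siKlf4 in PDGFR-β+ cells, while Col4a2 to Col4a1 and Col6a3 to Col6a1 move down in PDGFR-β+ cells and up in SMCs.

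Col8a1 and Col28a1 fell in both cell types. Col8a1 (chromosome 16, 57624258 to 57754737, reverse strand), a short-chain network collagen of vessel walls, measured 407, 247 and 444 TPM under Scr and 251, 170.2 and 187 TPM under siKlf4 in PDGFR-β+ cells. Scr replicate 2 and siKlf4 replicate 1 overlapped there, with a log2 difference of -0.82 (standard error 0.24, adjusted p = 0.0274, limma). In SMCs it went from 656, 533 and 508 to 409, 300.4 and 311 TPM with no overlap (log2 difference -0.74, standard error 0.15, adjusted p = 0.0109, limma). Its partner Col8a2 stayed between 0.464 and 2.02 TPM. Col28a1 (ENSMUSG00000068794.7; chromosome 6, 7997808 to 8192617, reverse strand), best known from peripheral nerve, fell more than any other chain in SMCs, from 506, 342 and 318 to 126, 81.7 and 89.1 TPM, or to 25.4% (log2 difference -1.96, standard error 0.22, adjusted p = 0.00183, limma). In PDGFR-β+ cells it was far lower and went from 16.9, 9.94 and 20.1 to 9.62, 4.14 and 3.91 TPM (log2 difference -1.31, standard error 0.35, adjusted p = 0.02, limma), where the lowest Scr and the highest siKlf4 library nearly meet. In PDGFR-β+ cells, the calls of both Col8a1 and Col28a1 were lost without Scr replicate 1 or 3 or siKlf4 replicate 2 or 3, with log2 differences of -1.08 to -0.66 and -1.67 to -1.12 over 14 alternatives and adjusted p-values up to 0.0872 and 0.0661. They were also lost there without the minimum mean of 1 TPM. Both calls held in SMCs in all 16 alternatives.

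Col18a1 (chromosome 10, 77052178 to 77166548, reverse strand), the basement membrane chain that releases endostatin, fell in SMCs from 101, 104 and 96.9 to 74.5, 70.7 and 65.8 TPM (log2 difference -0.51, standard error 0.07, adjusted p = 0.00364, limma). In PDGFR-β+ cells it measured 23.3, 24.3 and 23.8 TPM under Scr and 25.0, 26.2 and 19.0 TPM under siKlf4, which overlap (log2 difference -0.04, adjusted p = 0.84, limma). Its relative Col15a1, a chain of the same multiplexin class, measured 1.64, 1.24 and 1.36 TPM under Scr and 0.639, 0.492 and 0.645 TPM under siKlf4 in PDGFR-β+ cells. It passed the filter only through the Scr group, so its log2 difference of -0.60 is given without a test. Col7a1, the anchoring fibril chain and, like Col15a1, low in all groups, fell in PDGFR-β+ cells from 3.80, 4.19 and 4.44 to 1.59, 2.25 and 1.78 TPM (log2 difference -0.84, adjusted p = 0.00277, limma) and measured 2.83, 3.02 and 3.29 TPM against 2.95, 6.33 and 5.02 TPM in SMCs (log2 difference 0.47, adjusted p = 0.165, limma). Col7a1 was called higher in SMCs in the 4 numbered libraries and without the unnumbered siKlf4 library (log2 difference 0.68 in the numbered ones, adjusted p = 0.0366, limma, in a range of 0.0231 to 0.411 over 15 alternatives). Col10a1, the chain of hypertrophic cartilage and named here after its values were seen, had the largest rise in PDGFR-β+ cells, from 1.86, 2.06 and 2.04 to 9.04, 6.67 and 5.93 TPM (log2 difference 1.44, standard error 0.16, adjusted p = 4.5e-04, limma). In SMCs it was listed between 0.0665 and 0.414 TPM and was not tested.

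**Figure D4:**
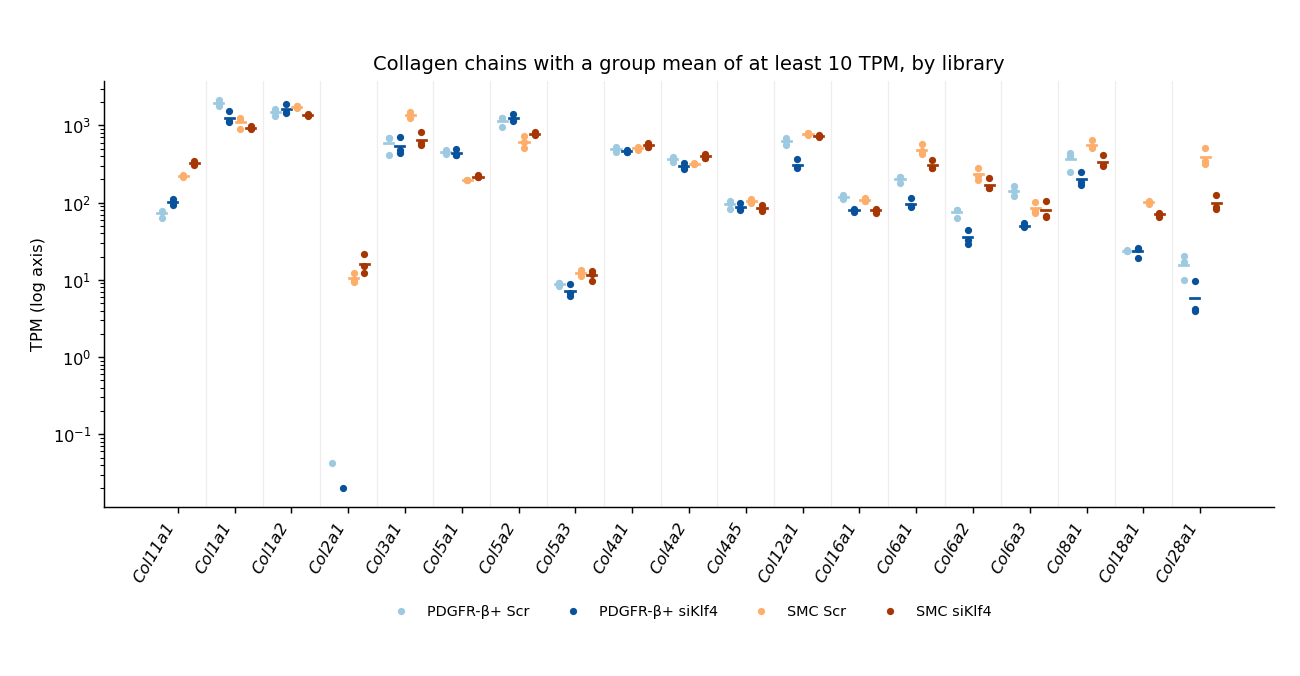
TPM in each library (y axis, log scale, points, with a line at the group mean where all 3 libraries are above 0) for the 19 chains with a group mean of at least 10 TPM, in the 4 groups. Col1a1, Col1a2 and Col3a1 reach the highest levels, Col28a1 falls from 318 to 506 TPM to 81.7 to 126 TPM in SMCs, and libraries at 0 for Col2a1 are not drawn.

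Base sequence upstream of the start was available for 35 of the 44 chains, in RefSeq windows of GRCm38.p6, and not for Col1a1, Col2a1, Col4a3, Col5a2, Col9a3, Col12a1, Col14a1, Col22a1 and Col26a1. Of the chains that changed the same way in both cell types, 4 had 250 bases before the start free of annotated exons and are shown 5′ to 3′ on the gene's strand. Capitals mark CACCC and GGGCGG, letters of the kind that Krüppel-like factors and Sp factors are known to bind, as well as CCAAT and TATAAA, each on either strand, with overlapping matches counted.

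Col11a1, chr3:114030290-114030539, forward strand: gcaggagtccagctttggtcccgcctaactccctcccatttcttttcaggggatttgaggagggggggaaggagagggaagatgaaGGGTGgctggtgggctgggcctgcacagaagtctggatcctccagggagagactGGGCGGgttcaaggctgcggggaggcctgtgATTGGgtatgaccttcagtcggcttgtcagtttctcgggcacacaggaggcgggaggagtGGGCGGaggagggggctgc
Col8a1, chr16:57754738-57754987, reverse strand: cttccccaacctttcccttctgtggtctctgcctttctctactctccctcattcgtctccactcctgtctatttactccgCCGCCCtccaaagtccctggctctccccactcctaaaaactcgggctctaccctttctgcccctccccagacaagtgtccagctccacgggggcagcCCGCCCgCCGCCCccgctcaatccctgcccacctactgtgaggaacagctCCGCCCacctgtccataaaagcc
Col28a1, chr6:8192618-8192867, reverse strand: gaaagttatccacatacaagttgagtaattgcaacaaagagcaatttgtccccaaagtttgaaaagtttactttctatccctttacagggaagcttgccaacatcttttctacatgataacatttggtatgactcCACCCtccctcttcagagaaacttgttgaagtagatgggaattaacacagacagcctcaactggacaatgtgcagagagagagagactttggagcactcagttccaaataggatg
Col4a6, chrX:141474077-141474326, reverse strand: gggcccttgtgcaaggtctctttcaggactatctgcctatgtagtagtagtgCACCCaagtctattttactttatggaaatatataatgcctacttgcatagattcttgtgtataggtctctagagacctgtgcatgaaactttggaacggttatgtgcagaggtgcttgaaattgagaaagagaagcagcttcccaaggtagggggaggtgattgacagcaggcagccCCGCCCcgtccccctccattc

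CACCC was present in 26 of the 38 windows of collagen chains (68.4%) and in 52% of all 32851 windows of this length, and GGGCGG in 22 (57.9%) and in 32.7%. CCAAT was present in 34.2% and 33.8%, and TATAAA in 13.2% and 12.4%. These are matches of letters, and no test was made of them.

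Between the cell types treated with Scr, 7 of 11 fibrillar chains were called higher in SMCs, as were Col6a1 and Col6a2, while Col1a1, Col5a1 and Col5a2 were lower. Among the 7, Col2a1 passed the filter only through the SMCs. The call of Col11a2, also among them, was lost in 9 of 13 alternatives (log2 differences 0.478 to 1.01, adjusted p up to 0.119, limma). Of 30 chains tested, 14 were higher in Scr SMCs (46.7%) and 6 lower (20%), against 24.4% higher and 23.3% lower of all 13800 genes tested. Of these, Col2a1 and Col23a1, higher, and Col10a1 and Col8a2, lower, reached the minimum mean only through the group where they are high, and 12 higher and 4 lower were left without them. In the numbered SMC libraries 11 were higher and 6 lower, in a fit for which the share of all genes was not counted. Cell type cannot be told apart here from the source of the cells, their culture and the table that holds them. Fibrillar chains made up 10 of the 20 called. Col3a1 was 2.25 times as high in SMCs as in PDGFR-β+ cells by the means of 1345 and 598 TPM (log2 difference 1.20, adjusted p = 0.00198, limma), while Col1a1 was 1.75 times as high in PDGFR-β+ cells (log2 difference -0.82, adjusted p = 0.00193, limma). The ratio of Col3a1 to Col1a1 was 0.325, 0.231 and 0.362 in Scr PDGFR-β+ cells and 1.67, 1.09 and 1.00 in Scr SMCs. With siKlf4 it became 0.456, 0.401 and 0.416 in PDGFR-β+ cells and 0.915, 0.596 and 0.600 in SMCs, so that the cell types stood closer, still without overlap. Col1a2 itself differed little, with 1482 ± 144 TPM (SD, n = 3) in PDGFR-β+ cells and 1749 ± 61.6 TPM in SMCs (log2 difference 0.24, adjusted p = 0.0683, limma).

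Col5a1 and Col5a2 were lower in Scr SMCs (log2 differences -1.19 and -0.91, adjusted p = 1.6e-05 and 0.00233, limma), at 197 and 612 TPM against 452 and 1144 TPM, whereas Col11a1 was higher, at 221 against 72.6 TPM (log2 difference 1.60, adjusted p = 1.2e-05, limma). The ratio of Col11a1 to Col5a1 was 0.161 ± 0.0138 (SD, n = 3) in Scr PDGFR-β+ cells and 1.12 ± 0.0405 in Scr SMCs, and 0.230 ± 0.0108 and 1.51 ± 0.0531 with siKlf4, with no overlap between treatments in either. Col2a1, the chain of cartilage fibrils, was listed at 0, 0 and 0.0422 TPM in Scr PDGFR-β+ cells and at 12.5, 9.86 and 9.25 TPM in Scr SMCs, and at 21.6, 12.2 and 14.9 TPM in siKlf4 SMCs. It passed the filter only through the SMCs, so its difference of 3.50 on the log2(TPM + 1) scale, which becomes 6.55 with a pseudocount of 0.1, is a description. Type VI chains split, with Col6a1 and Col6a2 2.41 and 3.14 times as high in SMCs (adjusted p = 1.9e-04 and 9.9e-05, limma) and Col6a3 1.67 times as high in PDGFR-β+ cells (adjusted p = 0.0056, limma). Col18a1 was 4.23 times as high in SMCs (log2 difference 2.03, adjusted p = 1.6e-06, limma). Among chains at 1 TPM or more in both Scr groups the largest difference was that of Col28a1, 24.9 times as high in SMCs (log2 difference 4.57, standard error 0.26, adjusted p = 1.1e-05, limma), and Col5a3, Col12a1 and Col8a1 were 1.40, 1.24 and 1.55 times as high. The calls of Col12a1 and Col8a1 rested on single libraries, since that of Col12a1 was lost without Scr PDGFR-β+ replicate 2 or 3 or any 1 Scr SMC library, and that of Col8a1 without any 1 Scr SMC library (log2 differences 0.23 to 0.39 and 0.40 to 0.83, adjusted p up to 0.0871 and 0.113 over 14 alternatives each). Both calls were also lost without the minimum mean of 1 TPM, and that of Col8a1 without the mean-variance trend. None of the 4 tested type IV chains was called, with log2 differences from -0.19 for Col4a2 to 0.13 for Col4a5.

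**Figure D5:**
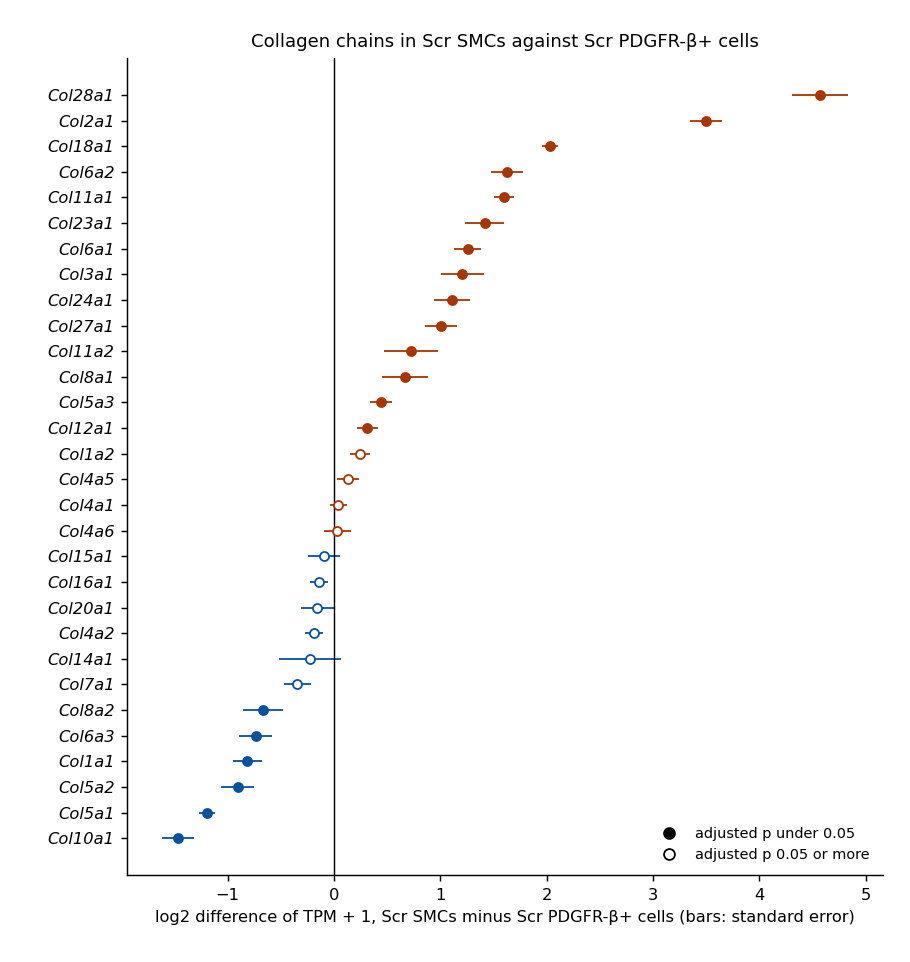
Log2 difference of TPM + 1 between Scr SMCs and Scr PDGFR-β+ cells (x axis, points with standard errors from limma) for the 30 chains tested, in order of size, with filled points for an adjusted p under 0.05. Col28a1 at 4.57 and Col2a1 at 3.50 stand furthest to the SMC side, and Col10a1 at -1.47 and Col5a1 at -1.19 furthest to the PDGFR-β+ side, with Col2a1 and Col10a1 below 1 TPM in the lower group, so that the filter set their direction.

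Whether the effect of siKlf4 itself differed between the cell types was tested as an interaction over the 12 libraries, in which a positive value means a higher effect in SMCs. Of 26 chains tested, 6 had a higher effect in SMCs (23.1%) and 5 a lower one (19.2%), against 14.5% and 18.5% of all 13032 genes tested, so the share of lower ones was near that of all genes. The 3 smallest adjusted p-values were those of Col12a1 (0.93, standard error 0.15, adjusted p = 7.3e-04, limma), Col6a3 (1.35, standard error 0.26, adjusted p = 0.00209, limma) and Col4a2 (0.62, standard error 0.12, adjusted p = 0.00216, limma), chains that fell in PDGFR-β+ cells. All 3 were called in each of 21 alternatives. Col7a1 (1.31, adjusted p = 0.00373, limma) and Col20a1 (0.68, adjusted p = 0.0184, limma) differed in the same direction. The low Col15a1, under 1 TPM in siKlf4 PDGFR-β+ cells, passed the filter there only through the Scr group, so its value of 0.72 is given without a test. Without Col15a1, 5 of 25 chains were higher and 5 lower. The effect was lower in SMCs for Col1a2 (-0.48, standard error 0.15, adjusted p = 0.0281, limma), Col18a1 (-0.48, standard error 0.15, adjusted p = 0.0261, limma), Col27a1 (-0.79, standard error 0.20, adjusted p = 0.0113, limma) and Col3a1 (-0.92, standard error 0.32, adjusted p = 0.0459, limma), and for the low Col24a1 (-0.60, adjusted p = 0.0499, limma). Col1a1, Col6a1, Col8a1, Col16a1, Col28a1 and Col11a1 were not called, with interaction values from -0.64 for Col28a1 to 0.40 for Col1a1. The call of Col3a1 was lost in 13 of 21 alternatives (log2 differences -1.09 to -0.67, adjusted p up to 0.11), that of Col24a1 in 17 of 20, that of Col1a2 in 6 of 21 and that of Col18a1 in 5 of 21. In the 4 numbered SMC libraries with the PDGFR-β+ libraries 7 chains were called, 5 higher and 2 lower, and the share of all genes was not counted there.

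Across the 12 libraries, the 3 chains whose log2(TPM + 1) values followed those of Col1a1 most closely among 25 compared were Col5a1 (Pearson r = 0.75), Col5a2 (r = 0.66) and Col16a1 (r = 0.63). The libraries share their groups and cell types, so these are a description and no p is given.

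Genes that handle collagen were counted from 5 lists of 48 genes in all, of which 1 was not found, and for all genes tested the shares higher and lower were 25.3% and 15.3% in PDGFR-β+ cells and 15.6% and 12.9% in SMCs. Crosslinking enzymes, the lysyl oxidases that join collagen molecules into stable fibrils, came first. In PDGFR-β+ cells 4 of the 5 fell and none rose, with a median log2 difference of -1.38, while in SMCs none of the 5 was called, with a median of -0.10. Lox fell in PDGFR-β+ cells from between 2049 and 3219 TPM to between 295 and 441 TPM, or to 12.7% (log2 difference -2.97, standard error 0.21, adjusted p = 6.0e-05, limma), and stayed between 3555 and 4673 TPM in the SMC libraries of both treatments (log2 difference -0.10, adjusted p = 0.536, limma). Loxl4 fell to 24.2% and Loxl2 to 33.7% of the Scr mean in PDGFR-β+ cells (log2 differences -1.99 and -1.38, adjusted p = 8.8e-06 and 0.0194, limma). The effect differed between the cell types for Lox, Loxl2 and Loxl4, with interaction values of 2.87, 1.75 and 2.06 (adjusted p = 1.9e-05, 0.0162 and 4.3e-06, limma), and for 4 of the 5 in all, each higher in SMCs, as were 14.5% of all genes.

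Of the 18 folding and modification genes, 17 were tested. In PDGFR-β+ cells 6 fell (35.3%) and 2 rose (11.8%), among them P3h4, part of the lysyl hydroxylase complex, which fell to 45.9% (log2 difference -1.11, adjusted p = 1.7e-04, limma), P4ha1, a subunit of the prolyl hydroxylase that stabilises the helix, which fell to 76.5% (log2 difference -0.39, adjusted p = 0.0171, limma), and P3h2, which rose from a low level (log2 difference 1.02, adjusted p = 0.0116, limma). In SMCs 4 rose (23.5%) and 1 fell (5.88%), with Plod2, a lysyl hydroxylase, higher (log2 difference 0.79, adjusted p = 0.00166, limma) and P4ha3 lower (log2 difference -1.02, adjusted p = 0.0034, limma). Serpinh1, the collagen chaperone HSP47, and P4ha2 were not called in either cell type (adjusted p = 0.143 and 0.0763 in PDGFR-β+ cells and 0.319 and 0.0929 in SMCs, limma). Plod1 and P3h4 had a higher effect in SMCs, with interaction values of 1.23 and 1.26 (adjusted p = 1.3e-05 and 7.0e-05, limma). In that test 6 genes of the list were higher (35.3%) and 2 lower (11.8%), against 14.5% and 18.5% of all genes. Of 6 tested export genes, 2 rose (33.3%) and 1 fell (16.7%) in PDGFR-β+ cells, near the 25.3% and 15.3% of all genes, and 2 rose in SMCs (33.3%, against 15.6%). Of 6 tested genes of procollagen processing, 1 rose and 1 fell in PDGFR-β+ cells (16.7% each, against 25.3% and 15.3%), the latter Pcolce2, an enhancer of propeptide removal (log2 difference -1.74, adjusted p = 1.2e-04, limma). In SMCs 1 rose (16.7%, against 15.6%) and 2 fell (33.3%, against 12.9%), the former Tll1, a tolloid protease that trims procollagen (log2 difference 1.10, adjusted p = 0.00473, limma). Of 8 tested receptors and uptake genes, 4 fell in PDGFR-β+ cells (50%, against 15.3%) and 2 rose in SMCs (25%, against 15.6%), and Ddr1 and Mrc2, a collagen receptor and a collagen uptake receptor, differed in effect (interaction values 1.03 and 1.22, adjusted p = 7.5e-04 and 2.3e-04, limma). The handling genes with a log2 difference of at least 1 between the Scr groups were Adamts3, Itga10, Plod2, Pcolce2, Loxl4, Itga2 and Itga11. Adamts3 and Itga10 were higher in SMCs (2.41 and 1.88). Plod2, Loxl4, Itga2 and Itga11 were lower (-1.33, -1.20, -1.28 and -1.28), and each of these 4, like Adamts3 and Itga10, had an adjusted p under the threshold. Pcolce2 averaged 0.866 TPM in Scr SMCs and passed the filter only through the PDGFR-β+ cells, so its value of -2.10 is a description.

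Markers of other cells moved beside these results, and their part in them was not tested. Of 9 smooth muscle markers, 8 had a mean of at least 1 TPM in Scr PDGFR-β+ cells and in Scr SMCs, but their summed level was 5577 to 6428 TPM in the former and 1509 to 2299 TPM in the cells labelled SMCs. With siKlf4 the sum was 4736 to 5039 TPM in PDGFR-β+ cells and 3432 to 4204 TPM in SMCs. In SMCs 7 of the 8 tested were higher and none was lower, against 15.6% and 12.9% of all genes tested. Acta2 and Myh11 were among the higher ones (log2 differences 1.01 and 1.57, adjusted p = 0.00644 and 0.00119, limma). In PDGFR-β+ cells 3 of the 8 were called lower and 3 higher, against 15.3% and 25.3% of all genes tested. The lower ones were Acta2 and Tagln (log2 differences -0.29 and -0.54, adjusted p = 0.0253 and 0.00316, limma) and Des. Des averaged 0.756 TPM under siKlf4 and passed the filter only through its Scr group, so its log2 difference of -0.82 is given without a test. Myh11, Lmod1 and Smtn were higher (log2 differences 0.66, 0.58 and 0.31, adjusted p = 0.00216, 5.6e-04 and 0.0415, limma). The 7 fibroblast markers summed to 630.5 to 740.2 TPM and 518 to 662 TPM in Scr and siKlf4 PDGFR-β+ cells and to 1144 to 1159 TPM and 934 to 1106 TPM in SMCs. The 7 pericyte markers, with Higd1b at 0 in all libraries, summed to 469 to 509 TPM and 319 to 417 TPM in PDGFR-β+ cells and to 239 to 243 TPM and 196 to 220.5 TPM in SMCs. Most of this was Pdgfrb, also a listed fibroblast marker, with means of 447 TPM in Scr PDGFR-β+ cells and 214 TPM in Scr SMCs. Cspg4 and Rgs5 were also higher in the former (26.9 against 5.29 and 2.27 against 1.23 TPM). Kcnj8, Abcc9 and Notch3 were lower there (0.0509 against 1.85, 0.0383 against 1.32 and 7.73 against 17.2 TPM). The 7 cartilage markers summed to 15.6 to 19.9 TPM and 19.5 to 23.1 TPM in PDGFR-β+ cells and to 102 to 142 TPM and 75.5 to 105 TPM in SMCs, with Comp at 48.9 to 76.8 TPM in Scr SMCs and Matn1 at 0 in every library. They moved in different directions. In PDGFR-β+ cells the Sox9 mean was 15.2 TPM under Scr and 20.9 TPM under siKlf4. There Comp went from 0.353 to 0.0139 TPM and Matn3 from 1.90 to 0.327 TPM, and Acan, Cnmd and Hapln1 averaged under 1 TPM. In Scr SMCs Sox9 averaged 55.6 TPM and Matn3 0.410 TPM.

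Markers of other kinds were low. The 6 macrophage and leukocyte markers summed to 28.6 to 29.9 TPM under Scr and 18.7 to 22.8 TPM under siKlf4 in PDGFR-β+ cells and to 4.44 to 7.19 TPM in SMCs, with Fcgr1 at 0 throughout. The 6 endothelial markers summed to 15.3 to 18.4 TPM and 14.1 to 16.2 TPM in PDGFR-β+ cells and to 1.34 to 2.65 TPM and 3.54 to 4.02 TPM in SMCs, with Cldn5 at 0 throughout. The 6 epithelial markers stayed at or under 1.22 TPM in sum, with Sftpc at 0 throughout. The 4 Schwann cell markers summed to 6.38 to 8.67 TPM and 1.73 to 2.80 TPM in PDGFR-β+ cells and to 5.49 to 8.18 TPM and 3.66 to 4.95 TPM in SMCs, the cells in which Col28a1 was abundant.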

How the data were processed

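Polyadenylated RNA was sequenced in 12 samples as paired-end, strand-marking (dUTP) libraries. The authors trimmed the reads, aligned them with HISAT2 to mm10 with GENCODE genes, and assembled and quantified them with StringTie. The deposited unit is TPM, with a separate file for each kind of cell, and their own tests, made with DESeq2 on counts, were not used here. TPM keeps no depth, so no counting interval is given.

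Values were tested as log2(TPM + 1) with limma 3.58.1 in R 4.3.3, with a mean-variance trend, over genes averaging at least 1 TPM across the libraries of each fit. Benjamini-Hochberg adjustment ran over all genes tested, with a threshold of 0.05. The siKlf4 effect was fitted within each cell type, the cell types were compared between their Scr groups, and the difference of the effects was an interaction term over 12 libraries. The cell types lie in separate tables, so levels set across them rest on the common TPM total. The code was tested on simulated data. Alternatives changed the pseudocount, filter, scaling, trend, replicate block, libraries and fit.

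Chains were described with values where they were called with a group mean of at least 10 TPM, together with Col1a1, Col1a2, Col3a1, chains of opposite direction and partner chains; handling genes were named from a called log2 difference of at least 1, with 5 fixed names. The members and lists were chosen with earlier results of these data known. Positions come from GENCODE M21, where 44 of 44 chains matched and 36 had the same identifier version. Reads in the 22 bases shared by Col4a1 and Col4a2 are told apart only by strand.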

Additional observations from a re-analysis of the deposited data

Results flagged for a closer look

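The effect of siKlf4 differed between SMCs and PDGFR-β+ cells, by the interaction term in limma over 12 libraries, for 11 of the 26 chains tested, 6 higher (23.1%) and 5 lower (19.2%), where 14.5% and 18.5% of all 13032 genes tested were called. Col15a1, 1 of the 6 higher, passed the filter in PDGFR-β+ cells only through its Scr group. Without it, 5 of 25 chains were higher and 5 lower. The values are log2 effects in SMCs minus those in PDGFR-β+ cells. They were 1.35 for Col6a3, 1.31 for Col7a1, 0.93 for Col12a1, 0.72 for Col15a1, 0.68 for Col20a1 and 0.62 for Col4a2, each higher in SMCs. They were -0.92 for Col3a1, -0.79 for Col27a1, -0.60 for Col24a1, -0.48 for Col1a2 and -0.48 for Col18a1, each lower in SMCs. The call of Col24a1 was lost in 17 of 20 alternatives, that of Col3a1 in 13 of 21, that of Col1a2 in 6 of 21, that of Col18a1 in 5 of 21 and that of Col15a1, which was under 1 TPM in siKlf4 PDGFR-β+ cells, in 4 of 17, and those of Col20a1 and Col27a1 with a replicate block.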

How the results depend on the processing

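The shares of all genes called were not counted for the alternatives. Counts of called chains ranged over all alternatives from 10 to 17 in PDGFR-β+ cells (15 as reported), from 10 to 17 in SMCs (12), from 14 to 21 between the Scr groups (20) and from 6 to 12 for the difference in effect (11). The last count was 6 with a minimum mean of 5 TPM and 7 in the SMC libraries that carry a number, and ranged from 7 to 10 when 1 library was left out, with 7 without Scr PDGFR-β+ replicate 2. The cause was not tested, except that a higher minimum tests fewer genes. The log2 difference of Col1a2 in PDGFR-β+ cells, not called, changed sign without siKlf4 replicate 1 (-0.0076, in a range of -0.0076 to 0.19 when siKlf4 or Scr libraries were left out 1 at a time). Values of other chains that were not called, such as Col5a1 in PDGFR-β+ cells and Col5a3 and Col6a3 in SMCs, changed sign too, while no called difference of a chain did under the alternatives run. Median-ratio scaling moved the median of all genes in PDGFR-β+ cells from 0.10 to 0.01 and that of the chains from -0.27 to -0.34. With a total that leaves out mitochondrial and ribosomal RNA loci, the SMC collagen share was 0.958% with Scr and 0.785% with siKlf4.

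Replicate numbers were not taken to pair the samples, since deviations of same-numbered PDGFR-β+ libraries correlated at 0.073, -0.016 and 0.0043 and SMCs had only 2 numbered pairs (0.107). With a replicate block 14 chains were called in PDGFR-β+ cells, 14 in SMCs and 8 for the difference in effect. The replicate block leaves out the unnumbered SMC libraries, so the counts for SMCs and for the difference in effect rest on the numbered SMC libraries. Adding whether an SMC library carries a number as a covariate, chosen after seeing the data, gave 17 in SMCs. TPM without depth limits what can be said of chains near 1 TPM.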
